A study of Mus musculus with 18 samples.

Results

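The syndecans and glypicans are the 10 genes of the 2 families of heparan sulfate proteoglycans that are held on the cell surface, Sdc1, Sdc2, Sdc3 and Sdc4 and Gpc1, Gpc2, Gpc3, Gpc4, Gpc5 and Gpc6. They were taken by symbol, as the coreceptors of FGF2, from the 55335 gene identifiers of each count file, and all 10 were found. RNA was measured in O9-1 cells, a mouse neural crest (NC) cell line, kept in osteoblast differentiation medium for 2.5 or 5 days (d2.5 and d5). At each day there were 3 groups of 3 libraries: scramble siRNA without FGF2 (Ctrl+vehicle), the same siRNA with FGF2 (Ctrl+FGF2), and siRNA pools against both Yap and Taz with FGF2 (Y/T dKD+FGF2), all of genotype Wildtype, which gives 18 libraries. There was no group with the knockdown and without FGF2, all groups come from 1 cell line, and each day carries its own batch label, so a change with day cannot be told apart from a change with batch. Nothing in the labels says that the 3 libraries of a group were separate cultures, so the p-values measure the spread between these libraries, which may be technical.

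Syndecans cross the membrane and carry heparan sulfate chains far out on their extracellular domain, with a short cytoplasmic tail that binds PDZ proteins and the actin skeleton. Glypicans have no tail, are tethered to the outer leaflet by a glycosylphosphatidylinositol (GPI) anchor, and carry their chains close to the membrane. The sulfated chains of both families bind FGF2 together with an FGF receptor, and so help to form the signalling complex; they also hold other growth factors and morphogens, among them Wnts, Hedgehogs and BMPs. Both can be released from the surface, syndecans by metalloproteinases and glypicans by cleavage of the anchor. In skeletal tissues Sdc2 is known from osteoblasts, Sdc3 from the early condensing mesenchyme and from cartilage, and loss of Gpc3, Gpc4 or Gpc6 in people is linked to skeletal or overgrowth syndromes.

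The members lie on 8 chromosomes of the mouse genome build mm10 (GRCm38, gene models of GENCODE M21). Sdc1 (ENSMUSG00000020592.14) spans chr12:8771323-8793715 and Sdc2 (ENSMUSG00000022261.6) spans chr15:32920723-33034935, both on the plus strand. Sdc3 (ENSMUSG00000025743.14) spans chr4:130792537-130826319 on the plus strand and Sdc4 (ENSMUSG00000017009.3) spans chr2:164424247-164443887 on the minus strand. Gpc1 (ENSMUSG00000034220.7) spans chr1:92831645-92860779 on the plus strand and Gpc2 (ENSMUSG00000029510.15) spans chr5:138273655-138280005 on the minus strand. The other 4 glypicans stand in pairs: Gpc4 (ENSMUSG00000031119.4, chrX:52053021-52165252) lies 107173 bases from Gpc3 (ENSMUSG00000055653.13, chrX:52272426-52613950) on the minus strand of chromosome X, and Gpc5 (ENSMUSG00000022112.14, chr14:115092215-116525179) lies 400135 bases from Gpc6 (ENSMUSG00000058571.11, chr14:116925315-117976544) on the plus strand of chromosome 14.

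Promoters were found in RefSeq (build GRCm38.p6) for 7 of the 10 members, each as 300 bases from 250 before to 50 after the RefSeq start. For Sdc2, Gpc1 and Gpc6 none was used here. The RefSeq start can differ from the start of the GENCODE gene model. The windows of Sdc4 and Gpc4 lie wholly inside the gene models given above. Those of Sdc1, Sdc3, Sdc4 and Gpc4 are printed 5′ to 3′ along the gene because the RNA of these 4 genes responded in different ways at the 2 days. They come from chr12:8771146-8771445 (plus strand), chr4:130792287-130792586 (plus), chr2:164443139-164443438 (minus) and chrX:52164874-52165173 (minus). Capitals mark the motifs searched for on both strands, which were the GC box GGGCGG, the TEAD motif GGAATG, the AP-1 motif TGANTCA and the ETS motif CCGGAAG. No match of a motif overlapped a match of another in these windows.
Sdc1: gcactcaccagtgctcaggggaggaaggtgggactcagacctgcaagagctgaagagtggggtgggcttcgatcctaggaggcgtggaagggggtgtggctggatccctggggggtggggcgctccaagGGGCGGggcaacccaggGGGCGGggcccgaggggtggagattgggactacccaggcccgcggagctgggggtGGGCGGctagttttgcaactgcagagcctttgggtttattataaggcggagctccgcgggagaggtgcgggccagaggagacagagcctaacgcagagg
Sdc3: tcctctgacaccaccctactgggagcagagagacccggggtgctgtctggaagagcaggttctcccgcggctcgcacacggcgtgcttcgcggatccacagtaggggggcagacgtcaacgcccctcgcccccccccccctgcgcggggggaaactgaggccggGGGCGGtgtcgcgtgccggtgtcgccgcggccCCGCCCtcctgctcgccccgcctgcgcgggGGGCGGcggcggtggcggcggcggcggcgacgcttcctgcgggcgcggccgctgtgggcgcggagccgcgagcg
Sdc4: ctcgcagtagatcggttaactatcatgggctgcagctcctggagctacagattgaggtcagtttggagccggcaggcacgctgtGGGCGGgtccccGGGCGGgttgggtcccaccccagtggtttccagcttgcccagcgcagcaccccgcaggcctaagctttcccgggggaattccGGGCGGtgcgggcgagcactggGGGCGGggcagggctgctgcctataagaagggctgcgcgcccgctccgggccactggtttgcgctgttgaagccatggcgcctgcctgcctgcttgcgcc
Gpc4: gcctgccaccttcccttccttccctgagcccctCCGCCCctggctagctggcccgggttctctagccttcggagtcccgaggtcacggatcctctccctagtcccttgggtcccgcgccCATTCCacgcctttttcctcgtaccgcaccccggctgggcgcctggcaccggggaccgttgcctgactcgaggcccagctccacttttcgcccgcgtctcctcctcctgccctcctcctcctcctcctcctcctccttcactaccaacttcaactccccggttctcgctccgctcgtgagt
The GC box was in the promoter of all 7 members and in 35.7% of the 32851 RefSeq promoters of the same length, with 3 copies each in Sdc1, Sdc3 and Gpc2, 4 each in Sdc4 and Gpc3 and 1 each in Gpc4 and Gpc5. The TEAD motif, the letters bound by the DNA-binding partners of YAP and TAZ, was in the window of Gpc4 alone, against 14.7% of all promoters. It lay 131 bases before the RefSeq start, on the opposite strand and inside the GENCODE gene model. The AP-1 and ETS motifs were in none of the 7, against 7.81% and 8.86% of all promoters. These matches describe the letters of the windows and say nothing about binding.

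The libraries held 10377151 to 14698525 counts on genes (median 12330911), with 27.0% to 34.4% of the reads on no gene. The targets of the siRNA were lower in all 3 knockdown libraries than in all 3 Ctrl+FGF2 libraries at both days: Yap1 had 66.7 ± 2.45 against 129 ± 2.79 normalized CPM (counts scaled to the effective size of the library; mean ± SD, n = 3) at d2.5 and 70.4 ± 3.40 against 152 ± 5.95 at d5, and Wwtr1, which encodes TAZ, had 136 ± 5.96 against 221 ± 2.96 and 124 ± 3.23 against 215 ± 2.87. Of the 12 markers of neural crest and its mesenchyme, 9 or 10 had counts in each group, and the list summed to 1618 to 3149 CPM. Sox10 and Foxd3 had no count in any group, and Ngfr had none in the 2 FGF2 groups of d2.5. The 8 osteoblast markers summed to 17150 to 17490 CPM in the vehicle libraries of d2.5, 9590 to 9837 with FGF2 and 11670 to 12190 with FGF2 and the knockdown, and to 32280 to 34500, 17810 to 19200 and 24480 to 26160 CPM at d5, with no marker at 0. The markers went both ways: with FGF2 2 were higher and 5 lower of 7 tested at d2.5, and 4 higher and 4 lower of 8 at d5, where Runx2 and Sp7 were among the higher. At d2.5 the 5 smooth muscle markers summed to 264 to 362 CPM in Ctrl+vehicle, 80.0 to 88.6 in Ctrl+FGF2 and 66.1 to 75.7 in Y/T dKD+FGF2. At d5 they summed to 2387 to 2551, 3221 to 3652 and 2730 to 2910 CPM in the same order of groups. The 5 chondrocyte markers summed to 541 to 763 CPM in Ctrl+vehicle and 39.9 to 49.8 CPM in the 2 FGF2 groups at d2.5. That fall was not seen at d5, where they summed to 179 to 292, 243 to 351 and 332.5 to 341 CPM in the same order of groups. The marker lists of epithelium, glia, endothelium and blood each summed to at most 8.30 CPM in every library, and that of neurons to at most 68.8 CPM. In bulk RNA fewer cells of a type and less RNA per cell cannot be told apart, and the part of these shifts in cell type markers in the results on the members was not tested.

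Syndecan transcripts outweighed glypican transcripts in all 6 groups. Levels between genes were compared per length, as normalized CPM per kilobase of exon (RPKM). In Ctrl+vehicle at d2.5 Sdc2 and Sdc3 led with 106 ± 4.28 and 106 ± 11.3 RPKM (SD, n = 3), a difference smaller than the spread between the libraries. Sdc1 followed at 52.0 ± 1.70, Gpc1 at 38.2 ± 3.03 and Sdc4 at 30.2 ± 0.483 RPKM, and these 3 genes did not overlap in any library. Gpc6 stood at 11.0 ± 0.349 and Gpc4 at 2.49 ± 0.0795 RPKM. With the length of the longest transcript in place of all exons, Sdc3 stood at 127 RPKM and ahead of Sdc2, and Gpc6 at 17.0 RPKM. At d5 in Ctrl+vehicle the order was Sdc2 at 257 ± 2.41, Gpc1 at 126 ± 4.09, Sdc1 at 105 ± 4.40, Sdc3 at 30.4 ± 0.714, Sdc4 at 29.5 ± 0.836, Gpc4 at 13.2 ± 0.459 and Gpc6 at 11.5 ± 0.105 RPKM, where Sdc3 and Sdc4 did not differ beyond their spread. With the longest transcript the d5 order changed: Gpc6 stood at 17.8 RPKM and above Gpc4 at 13.2, and Sdc3 at 36.6 and above Sdc4 at 30.6.

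The 10 members together gave 345 ± 6.22 RPKM in Ctrl+vehicle at d2.5, 196 ± 0.908 with FGF2 and 198 ± 4.54 with FGF2 and the knockdown. At d5 the sums, in the same order of groups, were 573 ± 9.40, 521 ± 19.6 and 566 ± 12.6 RPKM. Syndecans made up 85.0% ± 1.07, 81.4% ± 0.202 and 82.7% ± 1.05 of the sum at d2.5 and 73.7% ± 0.283, 73.2% ± 0.483 and 77.6% ± 0.647 at d5. Sdc3 alone was 30.6% ± 2.73 of the sum in Ctrl+vehicle and 20.6% ± 1.05 in Ctrl+FGF2 at d2.5, and 5.31% ± 0.181 and 8.01% ± 0.360 at d5. Sdc4, of which the level hardly moved at d2.5, went from 8.75% ± 0.136 to 14.4% ± 0.0852 of that smaller sum. These shares were described and not tested.

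**Figure D1:**
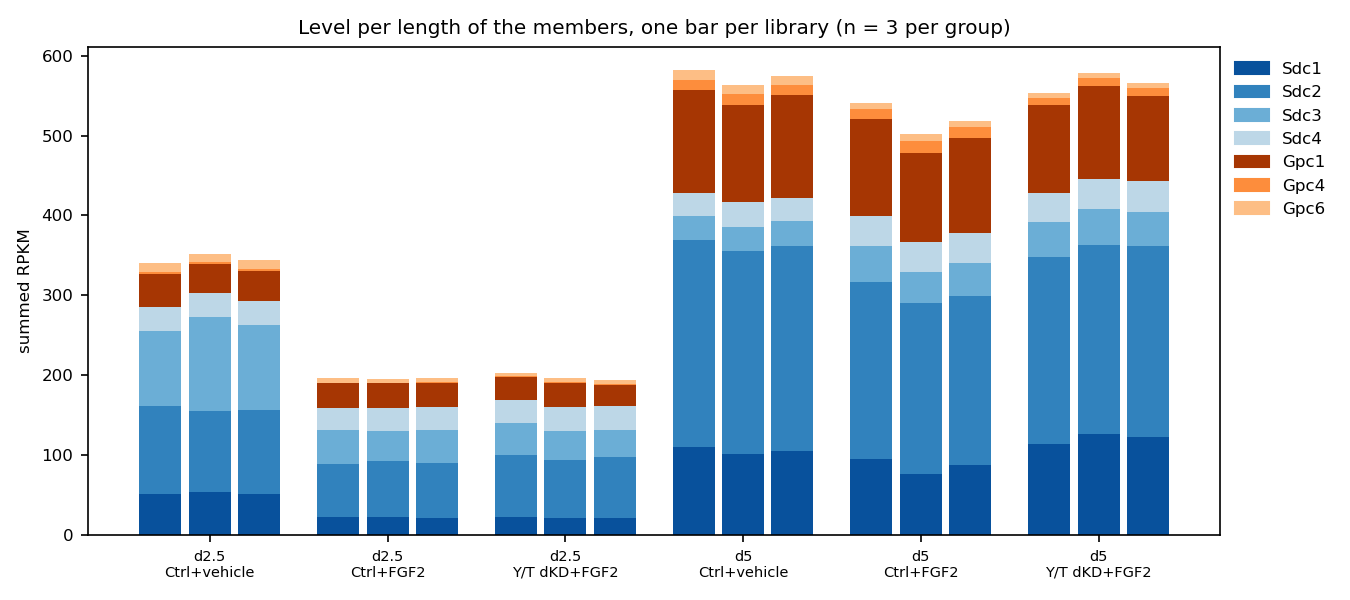
Level per length (RPKM, vertical axis) of the 7 measured members stacked in each of the 18 libraries, 3 bars per group, blue for syndecans and orange for glypicans. The d2.5 bars stand at 340.3 to 352 RPKM in Ctrl+vehicle and 194 to 203 in the FGF2 groups, and the d5 bars at 502 to 582 RPKM with a wider Gpc1 band.

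FGF2 lowered every measured coreceptor at d2.5. The 7 members that passed the filter on low counts were all lower in Ctrl+FGF2 than in Ctrl+vehicle, against 67.6% of 13677 tested genes called in this comparison, 33.5% higher and 34.1% lower; the members passed the filter on counts in all 3 groups together. Sdc3, the syndecan with the longest extracellular domain, fell most. It had 566, 701 and 631 CPM in the 3 Ctrl+vehicle libraries and 253, 227 and 246 CPM in the 3 Ctrl+FGF2 libraries, so every vehicle library stood well above every FGF2 library. The log2 fold change was −1.40 ± 0.053 (SE), 2.64-fold lower, with an adjusted p of 1.33e-20.

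Sdc1, the syndecan best known from epithelia and plasma cells, had 195, 205 and 194 CPM in Ctrl+vehicle against 87.6, 88.3 and 82.0 CPM in Ctrl+FGF2. The groups stood far apart, at a log2 fold change of −1.22 ± 0.040 (adjusted p = 4.17e-22), 2.32-fold lower. Sdc2 had 388, 358 and 374 CPM without and 233, 246 and 244 CPM with FGF2, a log2 fold change of −0.64 ± 0.035 (adjusted p = 1.34e-16), 1.56-fold lower. Sdc4, the syndecan of focal adhesions, moved least, with 75.6, 77.5 and 77.9 CPM without and 72.1, 71.8 and 71.7 CPM with FGF2. Its 2 groups did not overlap, and the log2 fold change was −0.11 ± 0.042 (adjusted p = 0.021). That call was lost without Ctrl+vehicle replicate 2 (adjusted p = 0.0554) or 3 (0.0622), without Ctrl+FGF2 replicate 2 (0.0527) or 3 (0.0691), with DESeq2 (0.0576) and without the filter on low counts (0.0776).

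Among glypicans, Gpc6 had 68.2, 71.3 and 72.6 CPM in Ctrl+vehicle and 33.1, 25.3 and 29.7 CPM in Ctrl+FGF2 at d2.5. The 2 groups did not overlap, with a log2 fold change of −1.28 ± 0.066 (adjusted p = 3.93e-17). Gpc4, a low transcript at this day, had 99, 102 and 83 raw counts without and 36, 36 and 54 with FGF2, a log2 fold change of −1.18 ± 0.158 (adjusted p = 9.89e-08). Gpc1, the leading glypican, had 215, 185 and 192 CPM without and 157, 159 and 159 CPM with FGF2, a log2 fold change of −0.33 ± 0.045 (adjusted p = 1.43e-07). Without overlap between the groups, the fall of Gpc1 was the smallest of the 3 glypicans.

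**Figure D2:**
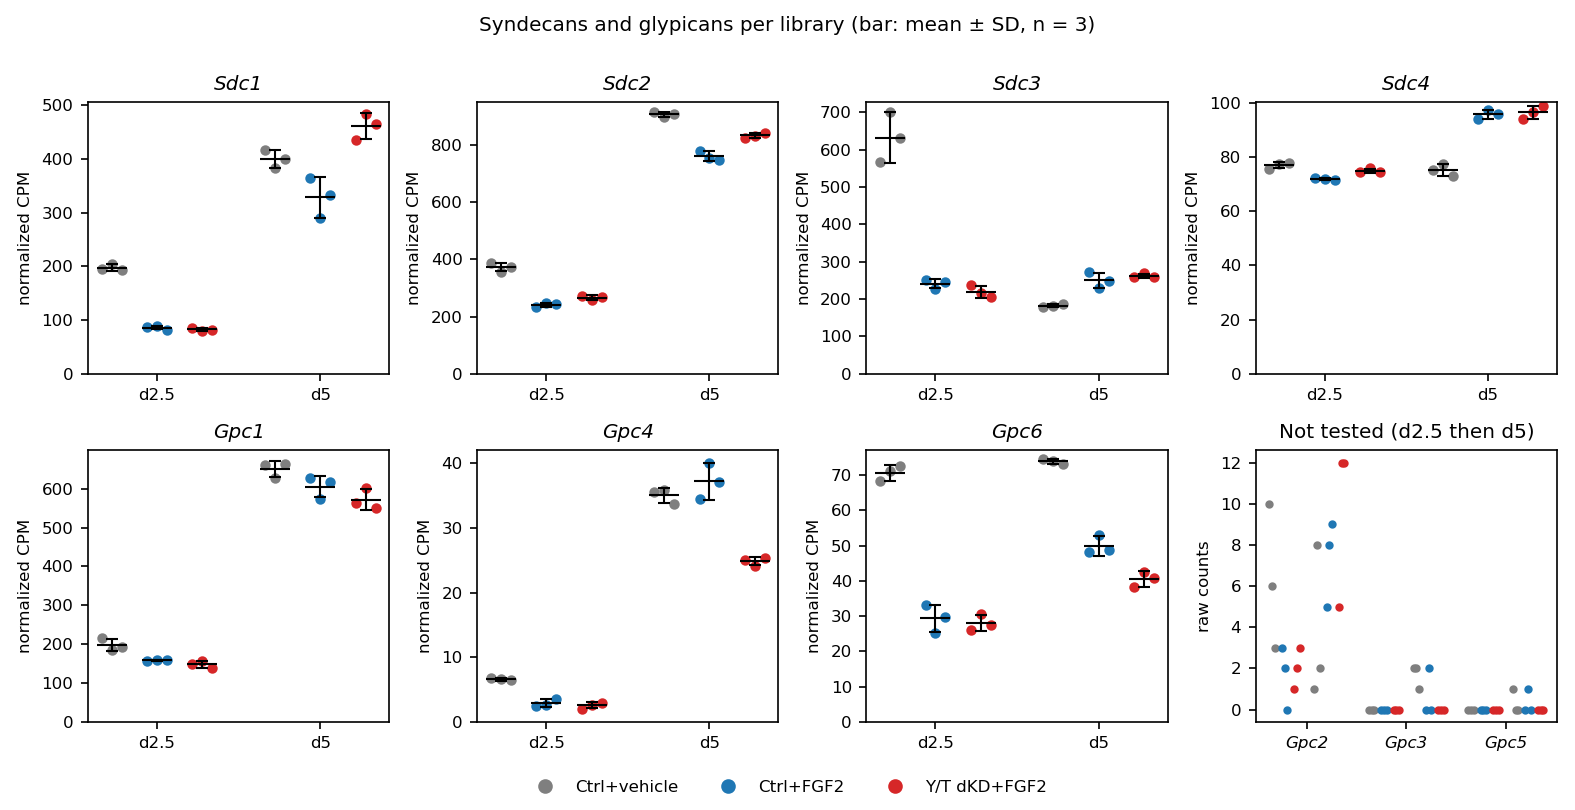
Normalized CPM (vertical axes, from 0) of each measured member in every library at d2.5 and d5, with the mean and SD of the 3 libraries of a group, and raw counts of Gpc2, Gpc3 and Gpc5 in the last panel. At d2.5 the points of both FGF2 groups for Sdc1, Sdc3, Gpc4 and Gpc6 lie far below Ctrl+vehicle, whereas at d5 Sdc3 and Sdc4 lie above it.

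With the knockdown of Yap and Taz at d2.5, Sdc2 was called higher and Sdc3 lower than in Ctrl+FGF2. These 2 of 7 members are 28.6%, near the 24.5% of 13677 genes called, 10.8% higher and 13.6% lower, so the count is no result about the members. Sdc2 had 274, 256 and 270 CPM in Y/T dKD+FGF2, all above the 233 to 246 CPM of Ctrl+FGF2, a log2 fold change of 0.14 ± 0.036 (adjusted p = 0.00479). Sdc3 had 237, 217 and 205 CPM, which overlapped with the 227 to 253 CPM of Ctrl+FGF2, and its log2 fold change of −0.15 ± 0.055 lay just past the threshold (adjusted p = 0.0459). The Sdc3 call was lost with DESeq2 (adjusted p = 0.322), with RLE (0.0607) or upper-quartile factors (0.0508), with at least 10 counts in every library (0.0509), with all 18 libraries in 1 fit (0.104), with the replicate number as a block (0.0576), and in 5 of the 9 fits that leave out a library. These were without Ctrl+vehicle replicate 3 (adjusted p = 0.0645), without Ctrl+FGF2 replicate 1 (0.207) or 3 (0.132), and without Y/T dKD+FGF2 replicate 2 (0.0936) or 3 (0.275).

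The other 5 measured members did not pass the test in the knockdown at d2.5. Their log2 fold changes were −0.07 for Sdc1 (95% interval −0.16 to 0.02), 0.05 for Sdc4 (−0.04 to 0.14), −0.10 for Gpc1 (−0.192 to −0.003), −0.21 for Gpc4 (−0.62 to 0.20) and −0.08 for Gpc6 (−0.24 to 0.08). Gpc1 passed the test when Ctrl+vehicle replicate 1 (adjusted p = 0.0392) or Y/T dKD+FGF2 replicate 2 (0.0278) was left out, and when only the 2 groups compared were fitted (0.0368). Set against Ctrl+vehicle, the knockdown cells with FGF2 had 6 of the 7 members lower, where 69.8% of genes were called, 34.1% higher and 35.7% lower. Sdc4 was the member not called (log2 fold change −0.06 ± 0.043, adjusted p = 0.213). Sdc3 had a log2 fold change of −1.55 ± 0.054 and Sdc1 of −1.28 ± 0.041 in that comparison, which shares the knockdown libraries and the vehicle libraries with the others.

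At d5 the FGF2 response of the coreceptors was split. Against Ctrl+vehicle, Sdc3 and Sdc4 were higher in Ctrl+FGF2, Sdc1, Sdc2 and Gpc6 were lower, and Gpc1 and Gpc4 did not pass the test, where 47.2% of 13304 genes were called, 23.5% higher and 23.7% lower. Sdc3 had 178, 183 and 186 CPM without and 272, 231 and 248 CPM with FGF2, a log2 fold change of 0.47 ± 0.049 (adjusted p = 4.95e-07), 1.38-fold higher. Sdc4 had 75.3, 77.3 and 73.0 CPM without and 93.9, 97.4 and 95.8 CPM with FGF2, a log2 fold change of 0.36 ± 0.043 (adjusted p = 2.27e-06). The vehicle and FGF2 libraries of both genes did not overlap.

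Gpc6 stayed below the vehicle level at d5, with 74.5, 74.0 and 73.2 CPM without and 48.1, 53.1 and 48.6 CPM with FGF2 (log2 fold change −0.55 ± 0.053, adjusted p = 2.11e-07). Sdc1 had 418, 384 and 399 CPM without and 364, 289 and 332 CPM with FGF2, and its highest FGF2 library was below its lowest vehicle library (log2 fold change −0.27 ± 0.062, adjusted p = 0.00148). Sdc2 had 916, 899 and 907 CPM without and 780, 756 and 747 CPM with FGF2 (log2 fold change −0.24 ± 0.032, adjusted p = 7.63e-06). Gpc1 had 627 to 665 CPM without and 574 to 627 CPM with FGF2, at a log2 fold change of −0.09 (95% interval −0.182 to −0.002, adjusted p = 0.0869). It passed the test without Ctrl+vehicle replicate 2 (adjusted p = 0.0291), without Ctrl+FGF2 replicate 1 (0.0434) and without the filter on low counts (0.0488). Gpc4, at 33.6 to 35.9 CPM without and 34.4 to 40.1 CPM with FGF2, had overlapping groups and a log2 fold change of 0.10 (95% interval −0.04 to 0.24).

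In the knockdown at d5, Sdc1 and Sdc2 rose and Gpc4 and Gpc6 fell against Ctrl+FGF2, where 31.7% of 13304 genes were called, 15.6% higher and 16.1% lower. Sdc1 had 436, 483 and 466 CPM in Y/T dKD+FGF2, all above Ctrl+FGF2, a log2 fold change of 0.49 ± 0.062 (adjusted p = 8.94e-06). Sdc2 had 826, 833 and 843 CPM, also above all 3 Ctrl+FGF2 libraries, a log2 fold change of 0.13 ± 0.032 (adjusted p = 0.00558). These 2 syndecans moved against the direction of their FGF2 response at d5, whereas the knockdown value of Gpc6 went further in the direction of its FGF2 response; the 2 comparisons share the Ctrl+FGF2 libraries.

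Gpc4 had 25.1, 24.2 and 25.3 CPM in the knockdown at d5, below every Ctrl+FGF2 and every Ctrl+vehicle library (log2 fold change −0.59 ± 0.069 against Ctrl+FGF2, adjusted p = 3.17e-06). Gpc6 had 38.2, 42.6 and 40.7 CPM, a log2 fold change of −0.31 ± 0.058 (adjusted p = 0.00045). Sdc3, Sdc4 and Gpc1 did not pass the test, with log2 fold changes of 0.07 (95% interval −0.04 to 0.17), 0.00 (−0.09 to 0.09) and −0.09 (−0.178 to 0.003). Sdc3 passed it without Ctrl+FGF2 replicate 1 (adjusted p = 0.0298) and Gpc1 without Ctrl+FGF2 replicate 2 (adjusted p = 0.0356).

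Against Ctrl+vehicle at d5, the knockdown cells with FGF2 had Sdc1, Sdc3 and Sdc4 higher and Sdc2, Gpc1, Gpc4 and Gpc6 lower, where 41.8% of genes were called, 20.7% higher and 21.1% lower. The log2 fold changes of the syndecans were 0.21 ± 0.061 for Sdc1, −0.12 ± 0.032 for Sdc2, 0.53 ± 0.049 for Sdc3 and 0.36 ± 0.043 for Sdc4. The Sdc1 call was lost without Y/T dKD+FGF2 replicate 2 (adjusted p = 0.0657). All 3 measured glypicans were lower, at −0.18 ± 0.043 for Gpc1, −0.49 ± 0.070 for Gpc4 and −0.86 ± 0.055 for Gpc6. This comparison uses the same vehicle and knockdown libraries as the other 2 of the day.

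**Figure D3:**
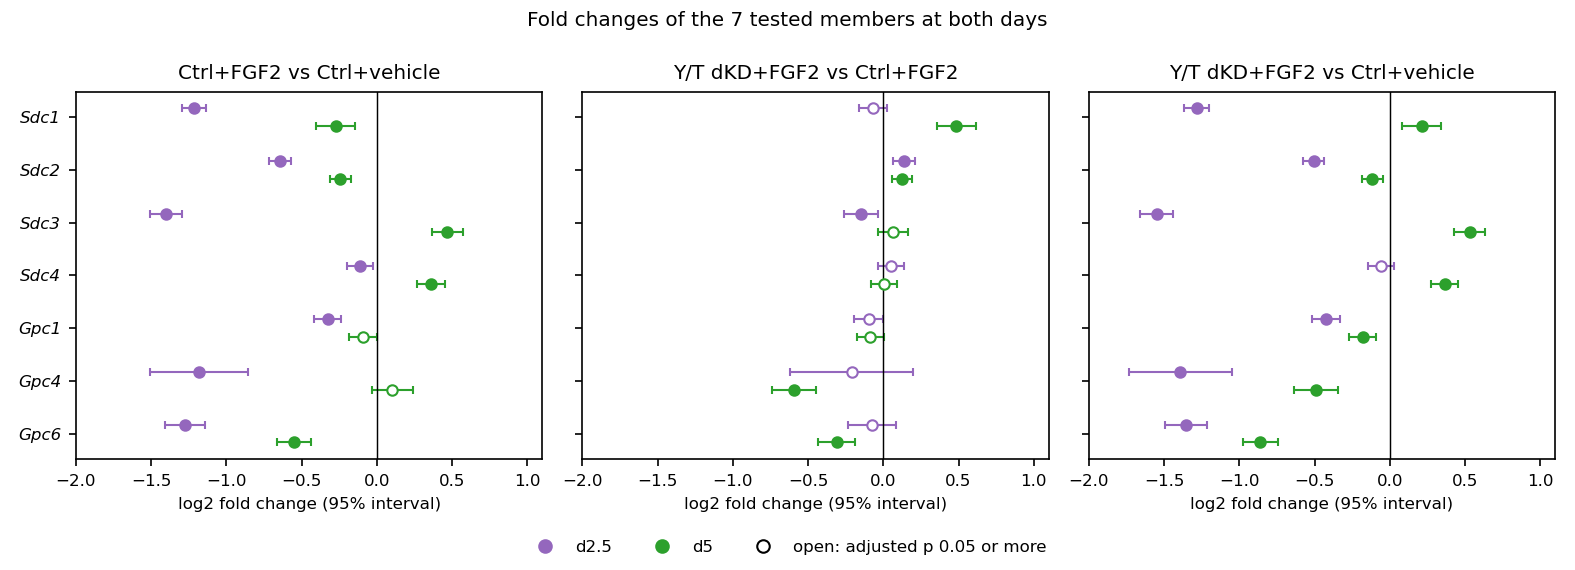
Log2 fold changes with 95% intervals (horizontal axes) of the 7 measured members in the 3 comparisons, in violet at d2.5 and in green at d5; filled symbols passed an adjusted p of 0.05. The FGF2 panel has all violet points left of 0, from −0.11 for Sdc4 to −1.40 for Sdc3, and the green points of Sdc3 and Sdc4 right of 0.

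The FGF2 effect of each of the 7 members was more positive at d5 than at d2.5, in a test over all 18 libraries of the difference between the effects of the days, where 60.9% of 14198 genes were called, 31.8% higher and 29.1% lower. The difference was 1.84 ± 0.087 on the log2 scale for Sdc3, whose effect turned from lower to higher, 1.26 ± 0.161 for Gpc4 and 0.92 ± 0.080 for Sdc1. It was 0.70 ± 0.094 for Gpc6, 0.45 ± 0.057 for Sdc4, 0.38 ± 0.049 for Sdc2 and 0.21 ± 0.068 for Gpc1 (adjusted p = 0.0086). The Gpc1 call was lost without d2.5 Ctrl+vehicle replicate 1, at a difference of 0.14 (adjusted p = 0.0576). The knockdown effect differed between the days for Sdc1, by 0.55 ± 0.084 (adjusted p = 1.57e-05), where 20.9% of genes were called, 11.6% higher and 9.35% lower. The other 6 did not pass the test in that difference, with adjusted p from 0.0849 for Sdc3 to 0.962 for Gpc1. Sdc3 passed it without d2.5 Ctrl+vehicle replicate 1 (adjusted p = 0.0481) or 2 (0.0439), without d2.5 Y/T dKD+FGF2 replicate 1 (0.0347), without d5 Ctrl+FGF2 replicate 1 (0.0188) and without the filter on low counts (0.0151), and Gpc6 without d2.5 Ctrl+FGF2 replicate 1 (0.0187).

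Gpc2, Gpc3 and Gpc5 did not pass the filter on low counts, and no test was made of them in the reported fits. Gpc3, a glypican that restrains Hedgehog signalling, had no count in any of the 9 libraries of d2.5, which allows at most 0.0698 CPM over the 3 Ctrl+vehicle libraries, and 5 counts without FGF2, 2 with it and 0 in the knockdown at d5. Gpc5 had no count at d2.5 and 1, 1 and 0 counts at d5. Gpc3 lies next to the measured Gpc4 and Gpc5 next to the measured Gpc6, so each chromosomal pair had 1 member with counts and 1 near 0.

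Gpc2, known from developing neurons, had 10, 6 and 3 counts in the Ctrl+vehicle libraries and 0 to 3 counts in the Ctrl+FGF2 libraries of d2.5. At d5 it had 1 to 8 counts without FGF2, 5 to 9 with it and 5 to 12 in the knockdown. With no filter the FGF2 effect at d2.5 was −1.85 on the log2 scale (adjusted p = 0.0241), and the difference of the FGF2 effect between the days was 2.79 (adjusted p = 0.00517). Fits that left out 1 library tested Gpc2 only where they kept both d5 knockdown libraries with 12 counts. They were thus selected by its highest libraries and are no check of this difference. Among them it was not past the test without d2.5 Ctrl+vehicle replicate 1 (2.29, adjusted p = 0.0561). With no filter Gpc2 was also higher in the knockdown with FGF2 than in Ctrl+vehicle at d5 (log2 fold change 1.36, adjusted p = 0.0338). These values rest on few counts, and 55.6% of the exon bases of Gpc2 are shared with Gm43720 on the same strand, so the counts of Gpc2 are uncertain. Of the measured members, Gpc1 shares 18.9% of its exon bases with Ankmy1 on the opposite strand and Sdc3 6.93% with the antisense gene Gm26716, and the counts used here were taken for the strand of each gene.

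The genes that build and trim the heparan sulfate chains were counted beside all genes tested, of which FGF2 called 67.6% at d2.5 (33.5% higher and 34.1% lower) and 47.2% at d5 (23.5% and 23.7%). Of the 17 tested genes of chain synthesis, 2 were higher and 11 lower at d2.5 (median log2 fold change −0.28, beside 0.00 over all genes tested). Papss2, which makes the sulfate donor as Papss1 does, had 36.0, 46.6 and 43.4 CPM without and 3.45, 4.22 and 3.81 CPM with FGF2 (log2 fold change −3.47 ± 0.111). Per length Papss1 was the higher of the pair and did not fall, with 33.3 ± 1.48 RPKM without and 41.6 ± 0.896 RPKM with FGF2. Papss2 had 11.3 ± 1.46 and 1.03 ± 0.103 RPKM. Xylt1, which starts the chain on the core protein, changed by −1.01 ± 0.091 and B4galt7, which adds the next sugar, by −0.69 ± 0.082. At d5 the same list had 1 higher and 4 lower of 17, with Papss2 at −1.72 ± 0.080 and Xylt1 and B4galt7 not past the test.

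Of the 9 tested genes of chain sulfation and epimerization at d2.5, 4 were higher and 2 lower with FGF2 (median 0.01), a share near the 67.6% of all genes. Ndst3, an N-deacetylase and N-sulfotransferase, had 3.79, 4.19 and 4.56 CPM without and 35.8, 36.9 and 36.6 CPM with FGF2, a log2 fold change of 3.11 ± 0.088. Per length it stayed the lowest of Ndst1, Ndst2 and Ndst3, at 0.423 ± 0.0386 RPKM without and 3.69 ± 0.0591 with FGF2. Ndst1 had 21.2 ± 0.157 and 21.6 ± 0.304 RPKM, and Ndst2 7.24 ± 0.373 and 5.86 ± 0.477 RPKM. Hs6st2, a 6-O-sulfotransferase, was at 0.92 ± 0.194 and Hs2st1, the 2-O-sulfotransferase, at −0.89 ± 0.043. At d5 Ndst3 stood at 0.666 to 1.93 CPM without and with FGF2 and did not pass the test (log2 fold change 0.61 ± 0.302). Of the genes that edit chains outside the cell, 2 of 3 tested were lower at d2.5. Sulf1, an endosulfatase that removes 6-O-sulfates, had 8.97, 9.22 and 11.6 CPM without and 0.563, 0.291 and 0.801 CPM with FGF2 (log2 fold change −4.13 ± 0.231), and Sulf2, of the same activity, changed by −0.43 ± 0.036. Per length Sulf2 was by far the higher, at 30.8 ± 1.07 RPKM without and 22.9 ± 0.469 RPKM with FGF2. Sulf1 had 0.879 ± 0.128 and 0.049 ± 0.023 RPKM.

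The list of shedding and processing genes had 2 higher and 9 lower of 12 tested at d2.5 (median −0.57), beside 33.5% higher and 34.1% lower over all genes. Mmp14 and Mmp2, metalloproteinases of the matrix, were at −1.23 ± 0.033 and −1.18 ± 0.033, and Notum, a lipase first described as releasing glypicans, at −1.44 ± 0.076. At d5 the same list had 5 higher and 5 lower of 14 tested, with Mmp14 at −0.38 ± 0.041, Mmp2 not past the test and Notum at −0.32 ± 0.118. Among intracellular partners of syndecans, 3 were higher and 4 lower of 11 tested at d2.5, with Ezr, a linker to actin, at 1.31 ± 0.071, Cask, a PDZ protein that binds syndecan tails, at −0.48 ± 0.049 and Dnm2 at −0.36 ± 0.039. Of the 6 other proteoglycans and part-time carriers of heparan sulfate, 3 were higher and 3 lower, with Col18a1 at 1.84 ± 0.041, Nrp1 at −1.16 ± 0.051 and Agrn at −1.09 ± 0.047.

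**Figure D4:**
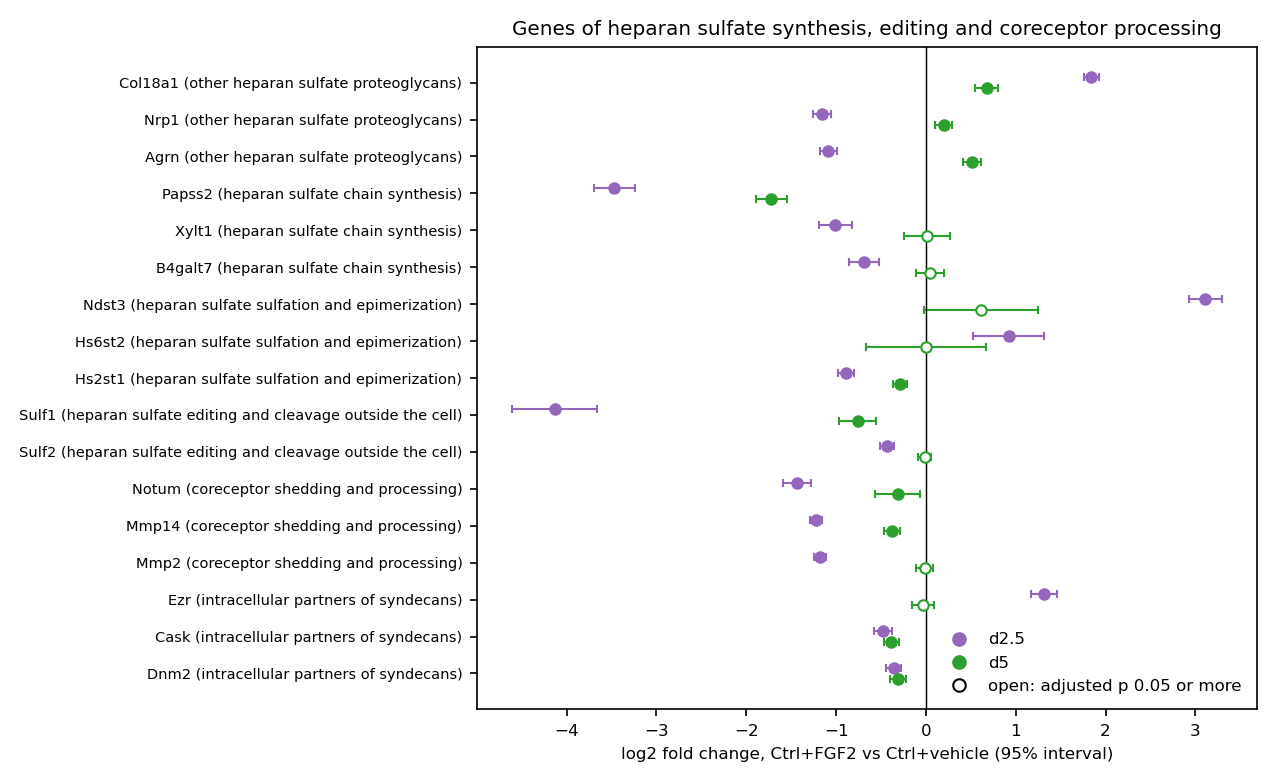
Log2 fold change with 95% interval (horizontal axis) for Ctrl+FGF2 against Ctrl+vehicle of the 17 genes of the heparan sulfate lists named by the size of their d2.5 change, at d2.5 (violet) and d5 (green), open where the adjusted p was 0.05 or more. Sulf1 and Papss2 lie at −4.13 and −3.47 at d2.5 and at −0.76 and −1.72 at d5, and Ndst3 at 3.11 and 0.61.

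In the knockdown at d2.5, where 24.5% of all genes were called, chain synthesis had 2 higher and 2 lower of 17, near that share, with Papss2 at 0.46 ± 0.172 (adjusted p = 0.0494) and Xylt2 at −0.30 ± 0.079. Sulfation and epimerization had 1 higher and 3 lower of 9, with Hs3st1 at −0.64 ± 0.211 and Hs6st1 at −0.33 ± 0.049. Sulf2, at −0.20 ± 0.038, was the single editing gene called of 3, shedding had 1 higher and 3 lower of 12 with Gdpd5 at −0.60 ± 0.118 and Adam9 at −0.22 ± 0.032, and syndecan partners 1 higher and 4 lower of 11 with Gipc1 at −0.27 ± 0.049 and Ezr at −0.24 ± 0.063. Of the 6 other proteoglycans 1 was higher and 1 lower: Hspg2, the basement membrane proteoglycan perlecan, was at −0.56 ± 0.042 and Nrp1 at 0.36 ± 0.056. At d5 the knockdown values of Sulf1 and Sulf2 went opposite ways, with Sulf1 at 1.01 ± 0.095 and Sulf2 at −0.43 ± 0.035, and Notum rose by 0.96 ± 0.110.

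The FGF receptors, which share a complex with these coreceptors, were tested with their adaptors, and with FGF2 1 was higher and 5 lower of 6 at d2.5 and 4 higher and 1 lower of 6 at d5, beside 67.6% and 47.2% of all genes called. At d2.5 Fgfr1 was the riser, from 151 ± 12.8 to 246 ± 4.23 CPM (log2 fold change 0.69 ± 0.041), while Fgfr3 changed by −4.93 ± 0.144, Fgfr2 by −3.33 ± 0.049 and Fgfrl1 by −1.02 ± 0.062 on the log2 scale. In the knockdown at d2.5 Fgfr1 was at 0.14 ± 0.040 and Fgfrl1 at −0.24 ± 0.074.

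Over the 18 libraries, the genes whose log2 CPM tracked Sdc3 most closely among 11616 compared were Sec24c (Pearson r = 0.981), Gse1 (0.977) and Zfp239 (0.973), and those nearest Gpc6 were Tcp11l1 (0.974), Papss2 (0.971) and Alg2 (0.971). The libraries fall into 6 groups of 3, so these values describe a likeness of group patterns and carry no test. Zfp239, as an example, had 16.2 ± 1.58 CPM in Ctrl+vehicle and 5.51 ± 0.385 in Ctrl+FGF2 at d2.5, and 4.53 ± 0.433 and 6.47 ± 0.697 at d5, the same order of these 4 groups as Sdc3. For Sdc3 the Ctrl+FGF2 libraries of the 2 days overlapped. The knockdown groups were ordered otherwise: Zfp239 had 6.06 ± 0.332 CPM at d2.5, above Ctrl+FGF2, and 6.27 ± 0.677 at d5, below it. Sdc3 had 219 ± 16.1, below Ctrl+FGF2, and 262 ± 6.13, above it.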

How the data were processed

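RNA of 18 libraries of O9-1 cells was sequenced as polyA RNA. The authors deposited a gene count table per library; their notes name FastQC, STAR, Picard and featureCounts and the build mm10, and versions are not given in the sources used here. Each table holds raw counts without strand and for either strand; the column of reverse-strand counts, 96.0% to 96.6% of the stranded counts, was used. Identifiers were matched without version to GENCODE M21 (55154 of 55335).

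Counts were tested with edgeR 4.0.16 (quasi-likelihood, TMM factors, filterByExpr, Benjamini-Hochberg over all genes tested, threshold 0.05) within each day over 9 libraries; differences of effects between days used all 18. The SE was derived from the log2 fold change and the F statistic, and intervals are 95%. CPM used TMM factors of all 18 libraries (day fits differ by a factor of 0.930 to 1.07), and RPKM the union of exons. Intervals of fold changes rest on the spread between the fitted libraries. A count of 0 was given a limit of 3 counts per group, which covers counting error only. Replicates differed by more than sampling noise, so none was counted as a duplicate.

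Alternatives were DESeq2 1.42.0, other factors, filters, the unstranded counts, a replicate block, the groups fitted and leaving out each library. The FGF2 and knockdown tests within each day were run on simulated counts with 2-fold changes and the same spread for every gene. They recovered 92.2% to 93.4% of the changed genes, and 4.71% to 6.32% of their calls were false. The differences between days and the comparison of the knockdown with vehicle were not simulated. All 10 members were named, with Yap1 and Wwtr1, the 3 genes of each pathway list with the largest called change with FGF2 at d2.5 and 2 in the knockdown, and the 3 genes most like Sdc3 and Gpc6. Papss1, Ndst1 and Ndst2 were also named, beside listed genes of like activity. Members and lists were chosen with earlier results of these data known. Protein sequences were not analysed here.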

Additional observations from a re-analysis of the deposited data

Results flagged for a closer look

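The effect of FGF2 differed between the days for all 7 tested members, by a test of the difference itself in edgeR over the 18 libraries. Of all 14198 genes tested, 60.9% were called in this difference, 31.8% higher and 29.1% lower. The effect at d5 minus that at d2.5 was 1.84 on the log2 scale for Sdc3, 1.26 for Gpc4, 0.92 for Sdc1, 0.70 for Gpc6, 0.45 for Sdc4, 0.38 for Sdc2 and 0.21 for Gpc1. The Gpc1 call was lost without d2.5 Ctrl+vehicle replicate 1 (adjusted p = 0.0576). Sdc3 was called lower with FGF2 at d2.5 and higher at d5. Sdc4 was called higher at d5, but its d2.5 log2 fold change was only −0.11 and that call was lost in several alternative fits.

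The knockdown effect differed between the days for Sdc1, by 0.55, where 20.9% of genes were called. For the targets of the siRNA, the FGF2 effect at d5 minus that at d2.5 was 0.27 for Yap1 and −0.77 for Wwtr1. Each day has its own batch label, so the days and the batches cannot be told apart.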

How the results depend on the processing

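Of 476 log2 fold changes of the 7 tested members under alternatives other than leaving out a library, 461 kept their direction and their side of the threshold, 8 lost and 3 gained a call, and 4 reversed, none of them called. The number of members called lower in the knockdown at d2.5 was 1; it was 0 with DESeq2, RLE factors, upper-quartile factors, at least 10 counts in every library, the replicate block and all 18 libraries in 1 fit, and 2 with only the 2 groups compared. The number called higher in the difference of the knockdown effect between the days was 1, and 2 without the filter on low counts. Reversed values were −0.004 for Sdc4 in the knockdown at d5 with upper-quartile factors, and for Gpc1 in the difference of the knockdown effect −0.014 with upper-quartile factors, −0.010 without the filter and −0.007 with at least 10 counts in every library. The cause was not tested.

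Leaving out each library in turn gave 630 values, of which 596 kept direction and call, 11 lost and 11 gained a call, and 12 reversed. Members called lower in the knockdown at d2.5 ranged from 0 to 2, and in the difference of the knockdown effect from 1 to 2 higher and from 0 to 1 lower. Ranges that crossed 0 were −0.17 to 0.018 for Gpc6 in the knockdown at d2.5, −0.011 to 0.019 for Sdc4 in the knockdown at d5, and −0.052 to 0.005 for Sdc2 and −0.036 to 0.041 for Gpc1 in the difference of the knockdown effect. Gpc2 was tested in some of these fits. Its highest d5 counts, 12 each, were in Y/T dKD+FGF2 replicates 2 and 3, and fits that left out either did not test it. Which fits tested Gpc2 thus depended on the group where it was highest, and calls in them are no support for a change. With FGF2 at d5 it was called higher without Ctrl+vehicle replicate 2 (log2 fold change 2.10, edgeR adjusted p = 0.0263), the vehicle library with the most counts. In the knockdown with FGF2 against vehicle at d5 it was called without that library (2.51, adjusted p = 0.00665) or without Y/T dKD+FGF2 replicate 1 (1.70, adjusted p = 0.0234). With the longest transcript as gene length, Sdc1 stood at 62.7, Sdc3 at 127, Sdc4 at 31.3, Gpc1 at 47.2 and Gpc6 at 17.0 RPKM in Ctrl+vehicle at d2.5.

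The replicate numbers showed no clear pairing of the libraries. Of 18 pairs of same-numbered libraries 2 correlated over 0.1 (range −0.0791 to 0.136). Each d5 Ctrl+vehicle library correlated best with its own number among the d5 libraries of Ctrl+FGF2, so a pairing was not excluded. With the replicate block the knockdown at d2.5 had 3226 genes called in place of 3345, and 0 members lower in place of 1. It changed no other call of a member. The depth of 10377151 to 14698525 counts limits Gpc2, Gpc3 and Gpc5, which have few or no counts.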
